A study of Mus musculus with 40 samples.

Results

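Peroxisomes are small organelles with a single membrane that import all of their enzymes from the cytosol, shorten very long and branched fatty acids, make the first intermediates of ether lipids and break down the hydrogen peroxide that their oxidases release. The genes described here are 35 genes of peroxisome biogenesis and peroxisomal lipid metabolism. They were taken by symbol from a list out of 53863 symbols in the count table, and all 35 were found on 1 line each. The rule used no measured value, but the list was drawn up with earlier results of these data known, so its counts beside those of all genes are descriptions. They were followed in 40 libraries of polyadenylated RNA from adult wild-type C57BL/6 mice, which had been housed at 22 °C before a 24 h exposure. One set was moved to 4 °C, called cold here, and the other to 30 °C, which is thermoneutral, a temperature at which a mouse need not make extra heat. Both exposures were sampled in liver and in 3 fat depots, namely brown fat (BAT), the inguinal white depot (iWAT) and the epididymal white depot (eWAT), with 5 libraries in each of the 8 groups. No group carried an engineered allele, and all were fed standard chow. The thermoneutral mice had therefore also left 22 °C only 24 h earlier. The sex of the mice was not given in the sources used here.

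Peroxins, encoded by the Pex genes, build the organelle: some insert membrane proteins, others dock and recycle the receptors that carry enzymes into the matrix, and others shape and divide the membrane. In the matrix, beta-oxidation runs through an acyl-CoA oxidase, a bifunctional hydratase and dehydrogenase, and a thiolase. Liver is the classical peroxisome-rich organ. Brown fat, which burns fatty acids for heat, is known to hold many small peroxisomes.

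Libraries held between 46508261 and 86681722 counts, and transcripts of the mitochondrial genome took 4.15% to 31.27% of them. Levels are in CPM, counts scaled to a common library size, on library sizes scaled by TMM over all 40 libraries, given per library in the order of replicates 1 to 5 or as mean ± SD of 5 libraries. Each change is given as the log2 ratio of cold over thermoneutral, with a standard error (SE), from edgeR's quasi-likelihood test within a tissue. A gene is said to have risen or fallen where its Benjamini-Hochberg adjusted p over all genes tested in that tissue was under 0.05. Defining markers were present in each labelled tissue. Summed brown adipocyte markers were at 3150 to 3850 CPM in thermoneutral BAT and at 35.8 to 83.2 CPM in thermoneutral iWAT, and summed hepatocyte markers were at 158000 to 197000 CPM over the 10 liver libraries. Nothing in the labels says that the 5 libraries of a group came from separate mice, so p-values measure only the spread between these samples. The counts of the 5 thermoneutral liver libraries appear to have been joined to the other 35 from a separate table. In liver, the exposure and any difference in how those tables were made cannot be told apart.

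The promoters of the 3 genes with the steepest rise in BAT are shown first, because Abcd3 holds a motif match that Ehhadh and Pex14 lack. Each window runs from 250 bases before to 50 bases after the start of transcription, 5′ to 3′ on the strand of the gene, from RefSeq on GRCm38.p6. The windows are chr3:121815253-121815552 for Abcd3, chr16:21787785-21788084 for Ehhadh and chr4:149099794-149100093 for Pex14, all on the minus strand. Capitals mark a match to the palindromic element known for the factor NRF1.

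Abcd3: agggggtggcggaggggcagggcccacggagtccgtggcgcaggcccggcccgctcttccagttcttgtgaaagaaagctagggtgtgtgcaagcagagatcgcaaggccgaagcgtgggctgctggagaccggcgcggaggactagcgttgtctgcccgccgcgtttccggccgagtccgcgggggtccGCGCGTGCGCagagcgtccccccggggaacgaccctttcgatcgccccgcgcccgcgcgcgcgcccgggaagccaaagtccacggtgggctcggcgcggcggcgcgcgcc

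Ehhadh: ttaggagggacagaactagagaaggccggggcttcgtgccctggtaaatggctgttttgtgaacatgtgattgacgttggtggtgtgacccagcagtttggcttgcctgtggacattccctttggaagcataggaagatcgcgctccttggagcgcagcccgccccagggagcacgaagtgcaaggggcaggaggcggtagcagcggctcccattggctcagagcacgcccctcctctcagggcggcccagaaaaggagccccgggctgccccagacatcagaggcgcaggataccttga

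Pex14: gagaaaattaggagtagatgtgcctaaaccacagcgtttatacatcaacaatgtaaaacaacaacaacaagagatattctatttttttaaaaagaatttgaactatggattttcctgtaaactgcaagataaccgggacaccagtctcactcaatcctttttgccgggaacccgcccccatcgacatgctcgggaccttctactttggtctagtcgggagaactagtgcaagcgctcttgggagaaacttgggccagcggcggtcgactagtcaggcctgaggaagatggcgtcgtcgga

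RefSeq windows were matched for 29 of the 35 genes, 35 windows in all since some genes have more than 1 start. Both strands were searched for 3 motifs. The direct repeat with 1 base between its repeats, bound by PPAR and HNF4 receptors, was in 0 of the 35 windows and in 0.381% of all 32851 windows. TCAAGGTCA, an element of the ERR receptors that can share its last bases with the direct repeat, was in 0 of the 35 and in 0.423% of all. The NRF1 element was in 5 of the 35 windows and in 4.6% of all. These 5 belonged to 4 of the 29 genes, namely Abcd3 at base -60 from the start site, Pex10, Pex11g and Nudt7. Abcd3 and Nudt7 rose in BAT, while Pex10 and Pex11g did not pass the test there. A match is a run of letters and not a bound site, and no match says only that these letters are not in this window.

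BAT showed the broadest response. Of 34 genes tested there (Far2 was too low), 17 rose and 4 fell, and they rose in every role but membrane proliferation and alpha-oxidation. As background, 60.2% of the 15288 BAT genes were called (30.2% higher, 30% lower), so most of this transcriptome differed between the exposures. The median change of the 34 genes was 0.35 on the log2 scale, against -0.038 for all genes. All 5 cold libraries lay above all 5 thermoneutral ones for 15 genes (23.3% of all genes) and below them for 4 (23.1%). In bulk tissue, fewer or more cells of a type and less or more RNA per cell cannot be told apart. Summed adipocyte markers stood at 10200 to 12900 CPM in thermoneutral and 15500 to 18500 CPM in cold BAT, with 2 of 8 markers higher, 3 lower and 0 at 0 CPM. Fabp4, the highest of them, had means of 5560 and 11500 CPM, while the median change of the 8 was -0.092 on the log2 scale. Summed brown adipocyte markers stood at 16400 to 22400 CPM in cold BAT, with 4 of 6 higher and 1 lower than at thermoneutrality. Summed lymphocyte markers stood at 6.08 to 22 CPM and 1.87 to 8.28 CPM, with 5 of 9 lower. The part of these markers in the result was not tested.

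**Figure D1:**
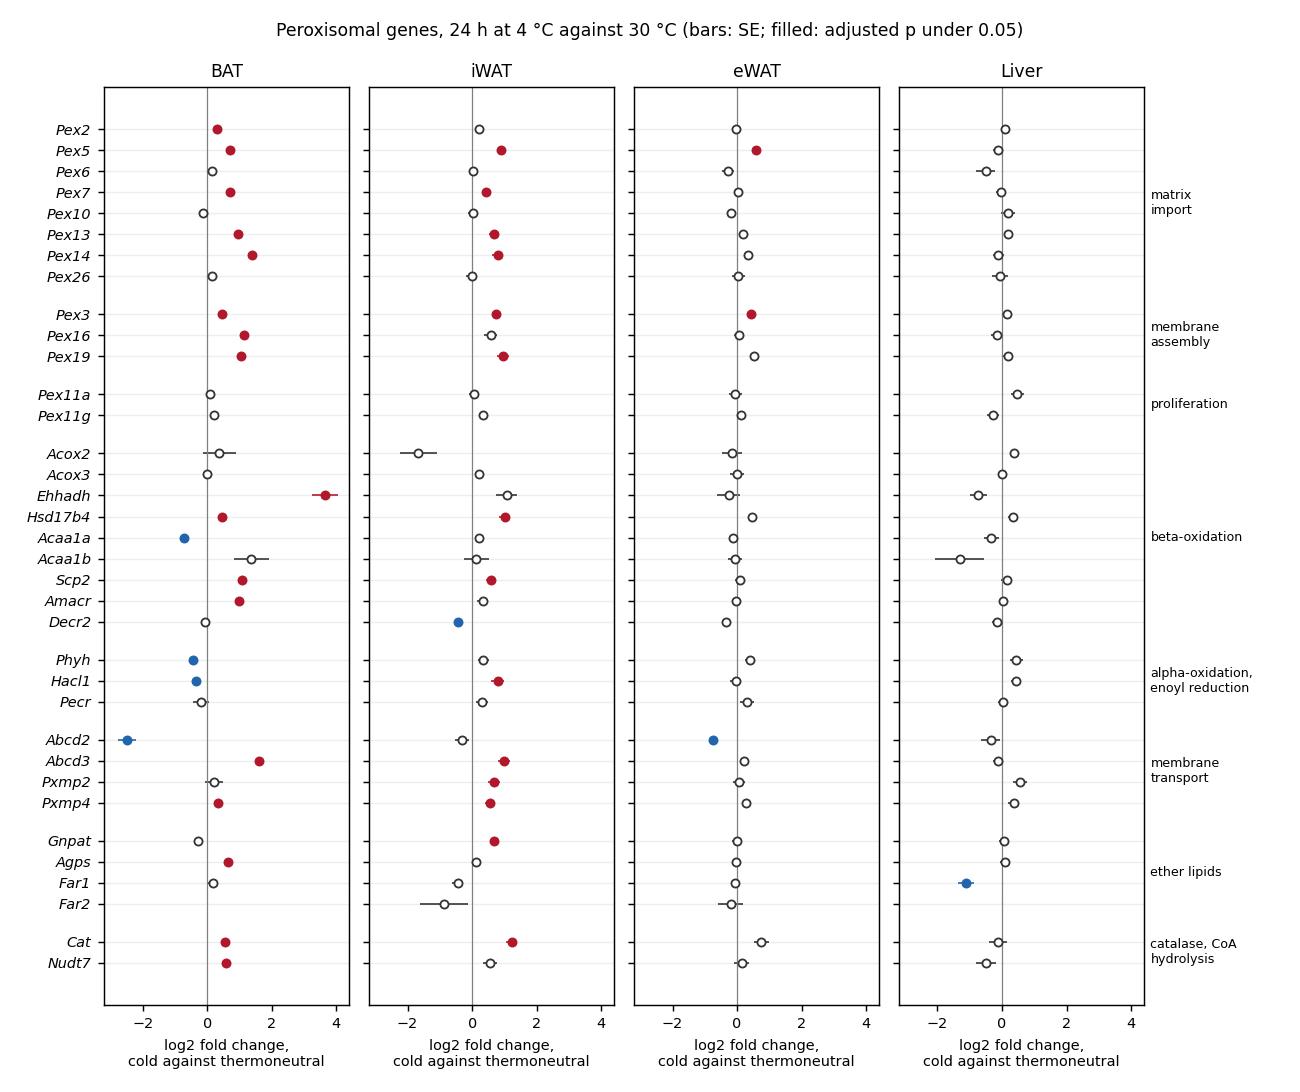
Log2 fold change of cold against thermoneutral (x axis, bars ± SE) for the 35 genes, grouped by role, in each tissue. Filled points had an adjusted p under 0.05 (red higher, blue lower) and open points did not; BAT has 17 red and 4 blue points, iWAT 14 and 1, eWAT 2 and 1, and liver 0 and 1.

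The steepest rise belonged to Ehhadh, the L-bifunctional enzyme of peroxisomal beta-oxidation. In thermoneutral BAT it was at 81.7, 92.8, 32.8, 46.6 and 22.2 CPM. In cold BAT it was at 652, 623, 763, 903 and 483 CPM. The lowest cold library lay far above the highest thermoneutral one. The log2 fold change was 3.65 (SE 0.41, adjusted p = 2.9e-05, edgeR).

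The 2 transporters of acyl-CoAs moved in opposite directions. Abcd3, known as PMP70, was at 206, 243, 214, 202 and 182 CPM in thermoneutral and at 592, 632, 605, 661 and 627 CPM in cold BAT. The groups were far apart and each was tight, with a log2 fold change of 1.60 (SE 0.08, adjusted p = 5.88e-08). Abcd2, which encodes ALDRP, a carrier of very long-chain acyl-CoAs, was at 136, 99.6, 92.2, 152 and 48.0 CPM in thermoneutral and at 18.5, 20.3, 15.1, 20.9 and 18.2 CPM in cold BAT. All 5 cold libraries lay below the lowest thermoneutral one, replicate 5, and the log2 fold change was -2.48 (SE 0.27, adjusted p = 2.25e-05). Of the other membrane proteins, Pxmp4 rose by 0.32 on the log2 scale and the pore protein Pxmp2 gave 0.20, not called.

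Of the 8 genes of matrix protein import 5 rose and 0 fell. Pex14, a docking protein at the membrane, was at 52.5, 54.3, 56.6, 57.5 and 48.5 CPM in thermoneutral and at 139, 144, 148, 136 and 124 CPM in cold BAT. The groups did not overlap, with a log2 fold change of 1.38 (SE 0.07, adjusted p = 5.01e-08). In the annotation 28.3% of the exon bases of Pex14 also lie in an antisense gene, whose reads an unstranded kit cannot tell apart. Its docking partner Pex13 rose by 0.97, the receptor Pex5 by 0.70, the receptor Pex7 by 0.71 and the ubiquitin ligase Pex2 by 0.32 on the log2 scale. The ligase Pex10, the ATPase Pex6, which recycles Pex5, and its membrane anchor Pex26 did not pass the test, at -0.13, 0.14 and 0.15.

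All 3 genes of membrane assembly rose. Pex16, which helps bring membrane proteins to the organelle, was at 42.7, 34.1, 42.5, 47.4 and 28.7 CPM in thermoneutral and at 84.6, 89.7, 78.4, 80.0 and 85.4 CPM in cold BAT. The groups did not overlap, and the log2 fold change was 1.12 (SE 0.12, adjusted p = 1.13e-05). Pex19, the soluble chaperone of peroxisomal membrane proteins, went from 154 ± 18.3 to 309 ± 20.02 CPM, a log2 fold change of 1.03 (SE 0.09). Pex3, its docking site, rose by 0.45 (SE 0.07, adjusted p = 0.00016). The proliferation genes Pex11a and Pex11g did not pass the test, at 0.10 and 0.20.

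Within beta-oxidation 4 of 9 genes rose and 1 fell. Scp2, which encodes a thiolase and a sterol carrier protein, was at 538, 571, 496, 459 and 453 CPM in thermoneutral and at 770.2, 961, 1098, 1199 and 1164 CPM in cold BAT. Cold replicate 1 was the nearest to the thermoneutral range without entering it, and the log2 fold change was 1.07 (SE 0.13, adjusted p = 2.1e-05). Amacr, the racemase of branched-chain acyl-CoAs, rose by 0.99 and Hsd17b4, the D-bifunctional enzyme, by 0.46. The thiolase Acaa1a stood at 147, 135, 139.9, 136 and 162 CPM in thermoneutral and at 62.0, 97.9, 98.6, 98.3 and 75.4 CPM in cold BAT. Here all cold libraries were the lower ones, with a log2 fold change of -0.71 (SE 0.13, adjusted p = 0.000508).

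Acaa1b, the second thiolase gene, was at 93.0 CPM in cold replicate 1 and at 16.9 to 22.4 CPM in the other 4 cold libraries, against 8.32 to 23.0 CPM in thermoneutral BAT. Its log2 fold change of 1.36 (SE 0.54) did not pass the test (adjusted p = 0.0535). Without that library it was 0.61 (adjusted p = 0.0984). Acaa1a and Acaa1b share 583 stretches of 50 bases, 12.4% of those of Acaa1a and 30.5% of those of Acaa1b, so the division of counts between this pair is uncertain. The oxidases of branched chains, Acox2 and Acox3, gave 0.38 and 0.01, and the dienoyl-CoA reductase Decr2 gave -0.08, none called.

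Alpha-oxidation, which removes the carbon that blocks beta-oxidation of phytanic acid, had both of its genes lower in cold BAT. Phyh, the hydroxylase of phytanoyl-CoA, was at 629, 616, 629, 536 and 732 CPM in thermoneutral and at 399, 425, 434, 497 and 490.1 CPM in cold BAT. The groups did not overlap, with a log2 fold change of -0.46 (SE 0.10, adjusted p = 0.00164). Hacl1, the lyase that follows it, was at 27.7, 31.0, 35.7, 30.3 and 31.8 CPM in thermoneutral and at 17.9, 24.9, 26.4, 25.5 and 25.3 CPM in cold BAT. All 5 cold libraries were lower, replicate 1 most of all, with a log2 fold change of -0.35 (SE 0.11, adjusted p = 0.013). Without that library it was -0.23 (adjusted p = 0.0188). In the annotation 31.1% of the exon bases of Hacl1 also belong to another gene on the same strand, so its counts are uncertain. Pecr, an enoyl-CoA reductase, gave -0.19, not called.

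In ether lipid synthesis 1 of 3 tested genes rose. Agps, which forms the ether bond, went from 33.2 ± 1.71 to 51.2 ± 4.83 CPM, a log2 fold change of 0.65 (SE 0.08, adjusted p = 1.91e-05). Gnpat, the acyltransferase of the step before, gave -0.28, and Far1, which makes the fatty alcohol, 0.19, neither called. Cat, which encodes catalase, rose by 0.54 and Nudt7, a CoA diphosphatase, by 0.59. Among the 35 genes cold replicate 1 stood apart from the other cold BAT libraries in Acaa1b, Far1, Hacl1 and Pex10. Without it 18 genes rose and 4 fell, beside 4753 and 4336 of all genes.

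**Figure D2:**
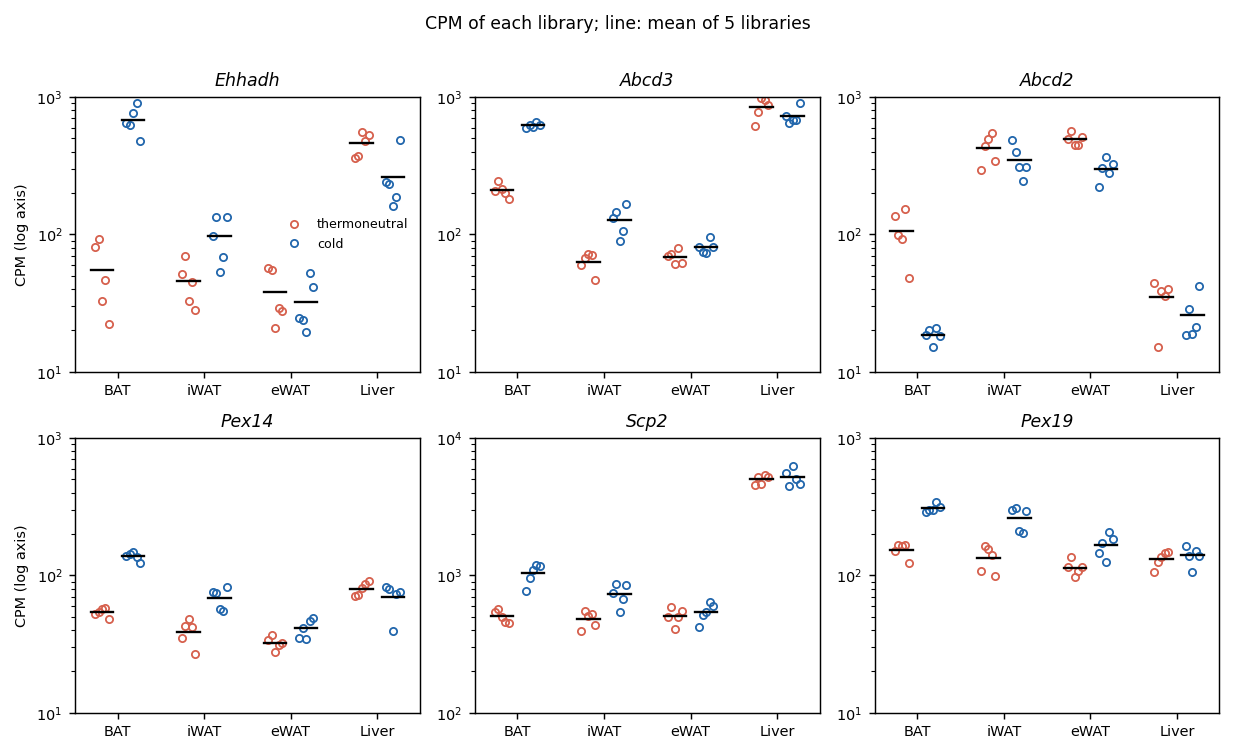
CPM on a log axis in each of the 40 libraries for 6 genes, by tissue and exposure, with a line at the mean of 5 libraries. In BAT the cold libraries of Ehhadh, Abcd3, Pex14, Scp2 and Pex19 lie above all thermoneutral ones and those of Abcd2 lie below them.

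In iWAT, a white depot in which cold is known to bring out brown-like adipocytes, 14 of 35 genes rose and 1 fell. Of all 16771 genes tested there 11.5% were called, 7.2% higher and 4.29% lower. The median change was 0.344 on the log2 scale, against -0.046 for all genes, and all cold libraries lay above all thermoneutral ones for 13 genes (8.29% of all genes) and below them for 0 (3.51%). Of the 14 risers 11 also rose in BAT, where 30.2% of all genes rose. The share of all iWAT risers that also rose in BAT was not counted, so this overlap is only a description. The count of risers was 8 without thermoneutral replicate 1 and 8 without cold replicate 1, 2 or 5. Over all genes 873, 650, 681 and 828 rose in these fits, in that order, against 1207 with all libraries. Summed adipocyte markers were at 9190 to 16100 CPM in thermoneutral and 18500 to 34500 CPM in cold iWAT, with 2 of 8 higher, 0 lower and 0 at 0 CPM. Fabp4 had means of 5010 and 15100 CPM, and the median change of the 8 was 0.456 on the log2 scale. Summed brown adipocyte markers were at 35.8 to 83.2 CPM and at 126 to 1400 CPM, with 4 of 6 higher and 0 lower. The part of either in the result was not tested. Summed lymphocyte markers ran from 56.8 to 766 CPM in thermoneutral and from 2.67 to 387 CPM in cold iWAT, with 0 of 10 called by edgeR and 0 at an unadjusted p under 0.05. With these markers as a covariate 9 genes rose, beside 864 of all genes. Summed skeletal muscle markers were at 11040 CPM in thermoneutral replicate 3 and at most 2375 CPM in the other 9 libraries. Without that replicate 11 genes rose, beside 942 of all genes.

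Cat had the steepest called rise in iWAT. It was at 368, 460.0, 494, 506 and 412 CPM in thermoneutral and at 1045, 1194, 697, 1298 and 1134 CPM in cold iWAT. The groups did not overlap, with cold replicate 3 the lowest cold library, and the log2 fold change was 1.22 (SE 0.17, adjusted p = 0.004). Hsd17b4 was at 130.4, 158, 157, 166 and 115 CPM in thermoneutral and at 355, 388, 247, 235 and 279 CPM in cold iWAT. Again every cold library was above every thermoneutral one, with a log2 fold change of 1.01 (SE 0.17, adjusted p = 0.00775).

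Abcd3 was at 60.2, 67.8, 71.8, 70.4 and 46.8 CPM in thermoneutral and at 131, 145, 89.0, 106 and 168 CPM in cold iWAT. The groups did not overlap, and the log2 fold change was 0.98 (SE 0.18, adjusted p = 0.0111). Pex19 was at 108, 165, 155, 139.7 and 98.6 CPM in thermoneutral and at 300.4, 309, 212, 205 and 293 CPM in cold iWAT. Cold replicates 3 and 4 were the lowest cold libraries for both genes, and for Pex19 too there was no overlap, with a log2 fold change of 0.95 (SE 0.19, adjusted p = 0.0123).

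Import and assembly genes rose beside them, with log2 fold changes of 0.90 for Pex5, 0.79 for Pex14, 0.73 for Pex3, 0.66 for Pex13 and 0.43 for Pex7. Hacl1 rose by 0.80 (SE 0.20, adjusted p = 0.0306), and was the one gene of the 35 that was called in opposite directions in a pair of tissues. Gnpat rose by 0.68, Pxmp2 by 0.68, Scp2 by 0.57 and Pxmp4 by 0.54.

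Decr2 fell in iWAT. It was at 14.4, 18.5, 16.0, 16.0 and 13.5 CPM in thermoneutral and at 10.4, 14.2, 11.3, 12.0 and 11.5 CPM in cold iWAT. The groups overlapped, and the log2 fold change was -0.44 (SE 0.11, adjusted p = 0.0311). Ehhadh missed the threshold in iWAT, with a log2 fold change of 1.07 (SE 0.32, adjusted p = 0.0573). Abcd2 gave -0.31, from 425 ± 106 to 349.8 ± 93.7 CPM, not called. With lymphocyte markers as a covariate it was -0.67 (SE 0.18, adjusted p = 0.0362), which was called. That fit called 1159 of all iWAT genes lower, where the main fit called 719.

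In eWAT, a visceral depot, 2 of 35 genes rose and 1 fell. Of 19123 genes tested 3.78% were called, 1.77% higher and 2% lower, and the median change was 0.013 on the log2 scale against -0.051 for all genes. For 1 gene all cold libraries lay above the thermoneutral ones (3.71% of all genes) and for 1 below (3.86%). With 1 of the 10 libraries left out in turn, between 0 and 2 genes rose and between 0 and 2 fell. DESeq2 called 6 higher and 2 lower, with Cat, Pex19, Hsd17b4 and Pex14 among the higher and Decr2 among the lower, beside 1054 higher and 1096 lower over all genes, where edgeR called 339 and 383. Summed adipocyte markers were at 10100 to 14600 CPM in thermoneutral and 15400 to 22300 CPM in cold eWAT, with 1 of 8 higher, 0 lower and 0 at 0 CPM. Fabp4 had means of 4740 and 10600 CPM, and the median change of the 8 was 0.134 on the log2 scale. Summed lymphocyte markers were at 18.9 to 48.3 CPM and 5.29 to 21.4 CPM, with 1 of 10 called lower, 7 at an unadjusted p under 0.05 and a median change of -1.307 on the log2 scale. Summed epididymis markers were at 2278 CPM in cold replicate 1, at 758 CPM in cold replicate 4 and at most 37 CPM in the other 8 libraries. The part of these markers in the values was not tested.

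Abcd2 was at 495, 564, 445, 451 and 511 CPM in thermoneutral and at 220.2, 302, 367, 282 and 329 CPM in cold eWAT. All cold libraries were the lower ones, with a log2 fold change of -0.74 (SE 0.13, adjusted p = 0.0192). Abcd2 was the one gene of the 35 that fell in 2 tissues. In iWAT the main fit did not call it. The fit with the lymphocyte covariate, which called more of all iWAT genes lower, did. Its eWAT call was lost without thermoneutral replicate 1 or without cold replicate 4 or 5.

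Pex5, the receptor for most matrix enzymes, and Pex3, the docking site for membrane proteins, rose in all 3 adipose tissues. Of the 13142 genes tested in all 4 tissues 1.24% rose in 3 or more and 0.0761% in 4. Of the 35 genes 0 rose in 4 tissues and, without that covariate, 0 fell in 3 or more, against 0.555% of all genes that fell in 3 or more and 0.0152% in 4. In BAT Pex5 was at 90.4, 84.9, 66.9, 73.6 and 59.7 CPM in thermoneutral and at 112, 110.0, 137, 130.4 and 109 CPM in cold libraries. In iWAT it was at 46.3, 58.2, 57.4, 54.3 and 41.1 CPM and 121, 109, 82.0, 84.8 and 97.1 CPM in the same order. In eWAT it was at 58.4, 55.8, 46.7, 49.2 and 49.0 CPM and 70.0, 79.1, 61.5, 102 and 85.2 CPM. No cold library of these tissues fell into its thermoneutral range, and in eWAT the log2 fold change was 0.60 (SE 0.12, adjusted p = 0.0291). In liver Pex5 was at 154, 177, 187, 203 and 194 CPM and 175, 165, 92.3, 170.5 and 189.5 CPM. The groups overlapped there, cold replicate 3 was the lowest library, and the log2 fold change of -0.12 was not called.

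In BAT Pex3 was at 42.4, 47.2, 41.8, 41.5 and 36.8 CPM in thermoneutral and at 54.1, 56.6, 56.2, 57.3 and 56.4 CPM in cold libraries. In iWAT it was at 23.7, 30.7, 30.4, 31.5 and 26.1 CPM and 51.0, 54.2, 40.4, 40.4 and 56.4 CPM in the same order. In eWAT it was at 30.2, 40.02, 32.1, 29.3 and 33.5 CPM and 41.4, 39.9, 42.8, 50.8 and 52.8 CPM. BAT and iWAT showed no overlap, while in eWAT thermoneutral replicate 2 lay above cold replicate 2, and the log2 fold change there was 0.44 (SE 0.10, adjusted p = 0.043). In eWAT the call for Pex3 held without thermoneutral replicate 2 or cold replicate 2 and was lost without any other single library. That for Pex5 was lost without thermoneutral replicate 3, 4 or 5 or cold replicate 2 or 5. In liver Pex3 was at 29.3, 28.2, 29.9, 34.2 and 39.4 CPM and 34.3, 32.0, 37.9, 30.7 and 34.2 CPM, which overlapped, with 0.16 on the log2 scale and no call.

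In liver 0 of 34 tested genes rose and 1 fell by edgeR, with 5 higher and 2 lower at an unadjusted p under 0.05, beside 3605 of 14472 genes in all. DESeq2 called 1 higher, Hacl1, and 1 lower, Far1, beside 808 and 836 of all genes, where edgeR called 146 and 94. Of 14472 genes tested 1.66% were called, 1.01% higher and 0.65% lower, and the median change was 0.024 on the log2 scale against 0.006 for all genes. For 0 genes did all cold libraries lie above the thermoneutral ones (1.51% of all genes), and for 1 below (3.65%). Summed lymphocyte markers were at 20.3 to 157 CPM in thermoneutral and 1.3 to 7.06 CPM in cold liver, with 1 of 8 tested markers lower. All 8 had an unadjusted p under 0.05 by edgeR, and their median change was -2.206 on the log2 scale. Summed macrophage markers were at 140 to 361 CPM and 70.7 to 190 CPM. Of these 7 markers 0 were called and 6 had an unadjusted p under 0.05, with a median change of -1.08. Summed hepatocyte markers were at 170000 to 197000 CPM and 158000 to 193000 CPM, with 0 of 7 called by edgeR and 1 at an unadjusted p under 0.05. The part of these markers was not tested. Cold replicate 3 had 21.9% of its counts from mitochondrial transcripts, against 5.13% to 8.60% in the other 9 liver libraries.

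Far1 was the gene that fell in liver, where it was low. It was at 5.47, 2.77, 3.53, 3.62 and 2.44 CPM in thermoneutral and at 1.55, 1.23, 1.48, 1.53 and 1.87 CPM in cold liver. The groups did not overlap, and the log2 fold change was -1.13 (SE 0.25, adjusted p = 0.0468). The call held without cold replicate 5 and was lost without any other single library. In those other fits at most 11 of all liver genes were higher and 21 lower, against 146 and 94 with all libraries.

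Cold replicate 5 stood apart from the other 4 cold livers in Acaa1b and Ehhadh. Acaa1b was at 829.9, 1266, 1617, 2204 and 1973 CPM in thermoneutral and at 408, 200.03, 137, 147 and 2182.1 CPM in cold liver. Ehhadh was at 358, 372, 554, 483 and 533 CPM in thermoneutral and at 239.8, 232, 161, 189 and 491 CPM in cold liver. For both genes cold replicate 5 lay within the thermoneutral range and the other 4 cold libraries lay below it. With all 10 libraries neither was called, at -1.31 (SE 0.76) for Acaa1b and -0.73 (SE 0.27) for Ehhadh.

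Without cold replicate 5 the log2 fold changes by edgeR were -2.74 (SE 0.38, adjusted p = 0.00136) for Acaa1b and -1.07 (SE 0.18, adjusted p = 0.00353) for Ehhadh. That library was singled out above by its values of these same genes. The p-values without it therefore only describe the remaining libraries and are no test of a fall. Then 2 genes were higher, Pxmp2 and Hacl1, and 4 lower, Acaa1b, Ehhadh, Far1 and Pex6, while the calls over all liver genes went from 146 higher and 94 lower to 1176 and 1208. With cold replicates 4 and 5 both left out 1 gene was higher and 4 were lower, beside 959 and 902 of all genes. With any other single library left out 0 of the 35 genes were called. The calls over all liver genes were lost with them, at most 11 being higher and 21 lower in those fits.

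**Figure D3:**
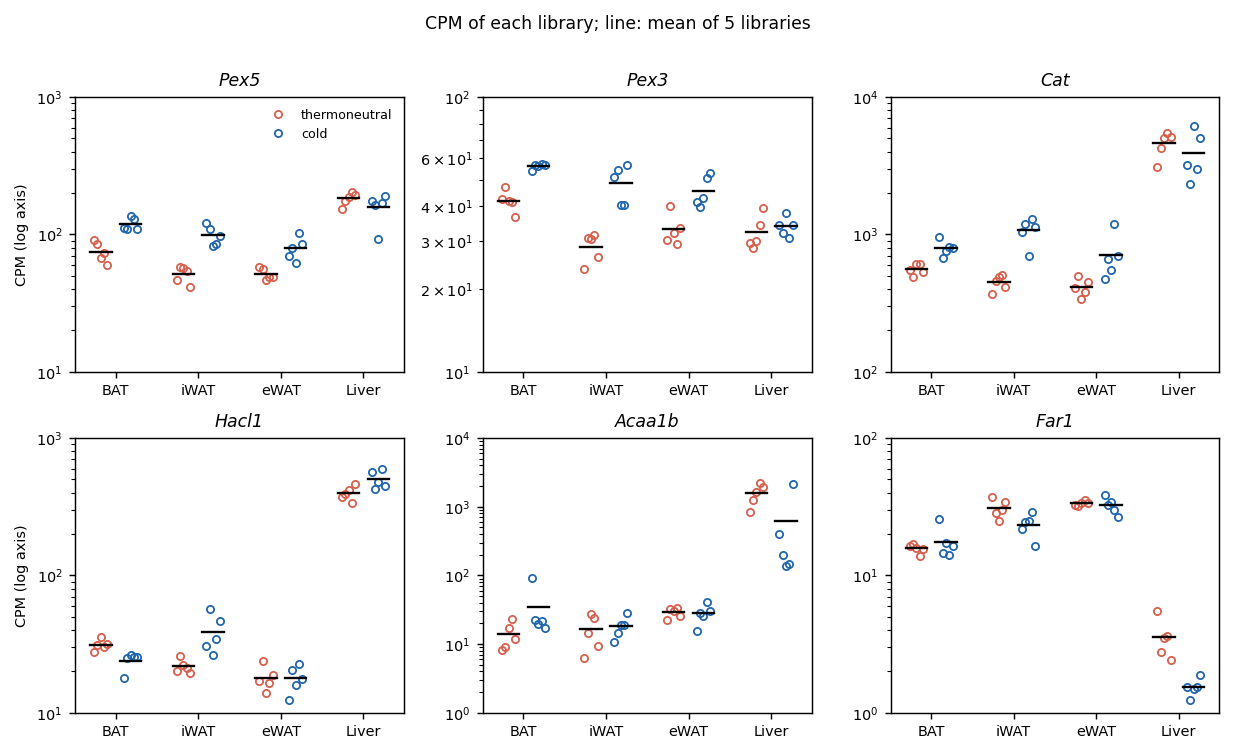
CPM on a log axis in each of the 40 libraries for 6 genes, by tissue and exposure, with a line at the mean of 5 libraries. Pex5 and Pex3 are higher in the cold in the 3 adipose tissues, Hacl1 is lower in cold BAT and higher in cold iWAT, and 1 cold liver library of Acaa1b, at 2182.1 CPM, lies among the thermoneutral ones.

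The cold effect in each other tissue was then set against that in BAT by an interaction contrast over all 40 libraries. The 3 contrasts share the BAT libraries and are not independent of each other. In iWAT 6 genes had a higher and 5 a lower effect than in BAT (10.6% and 8.27% of 20756 genes), in eWAT 2 and 9 (11.5% and 11.5%), and in liver 3 and 14 (9.94% and 14.2%). The effect on Ehhadh differed from that in BAT by -2.53 in iWAT (SE 0.51, adjusted p = 0.000454), -3.86 in eWAT (SE 0.52) and -4.44 in liver (SE 0.53), all called. That on Abcd3 differed by -0.56, -1.34 and -1.79 in the same order, also called. Abcd2 had the higher effect in all 3, by 2.22, 1.79 and 2.08. Phyh did so too, by 0.86, 0.91 and 0.83.

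Ether lipid genes parted between the BAT and iWAT responses. The effect on Gnpat was higher in iWAT by 1.02 (SE 0.21, adjusted p = 0.00046), while that on Agps differed by -0.47 (SE 0.14, adjusted p = 0.0186). Hacl1 had the higher effect in iWAT by 1.22 (SE 0.24, adjusted p = 0.000282). For Pex5 and Pex3 no difference between iWAT and BAT was called, at 0.27 (SE 0.21) and 0.35 (SE 0.15).

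Counts of Abcd2 and Abcd3 were also set against each other within each library, which removes library scaling. Abcd2 took 32.6 ± 8.87% of the counts of the pair in thermoneutral BAT and 2.89 ± 0.277% in cold BAT (SD, 5 libraries each). In iWAT it took 86.7 ± 2.24% and 72.9 ± 5.75%, and in eWAT 87.7 ± 1.64% and 78.3 ± 4.24%. In these 3 tissues the thermoneutral and cold shares did not overlap, and each had an exact two-sided permutation p of 0.00794, the smallest that 5 against 5 can give, and 0.019 after adjustment over 12 such tests. For BAT this outcome was fixed in advance, since all cold libraries were lower for Abcd2 and higher for Abcd3. It is no further test there. In liver the shares were 4.09 ± 1.77% and 3.38 ± 0.914%, which overlapped (exact permutation p = 0.484, adjusted p = 0.581). Shares of counts are not corrected for transcript length, so they show how the balance moved and not which transcript is the more abundant.

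**Figure D4:**
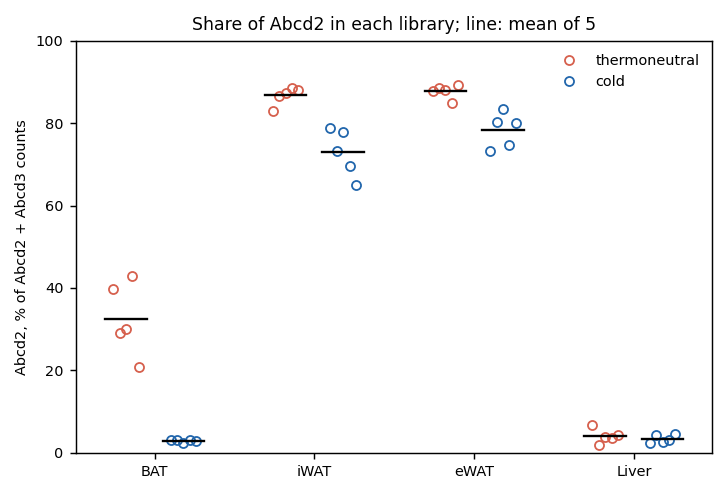
Share of Abcd2 in the summed Abcd2 and Abcd3 counts (%) of each library, by tissue and exposure, with a line at the mean of 5 libraries. The share is lower in the cold in BAT, iWAT and eWAT without overlap, and is at most 6.78% in liver.

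The same was done for 2 further pairs. Acaa1b took 8.75 ± 3.83% of the Acaa1a and Acaa1b counts in thermoneutral and 26.4 ± 18.8% in cold BAT, where 1 library reached 60% (exact permutation p = 0.00794, adjusted p = 0.019). In liver it took 85.5 ± 3.26% and 62.7 ± 15.2% (exact permutation p = 0.0476, adjusted p = 0.0816). Pex11g took 44.6 ± 4.88% of the Pex11a and Pex11g counts in thermoneutral and 31.8 ± 6.81% in cold liver (exact permutation p = 0.00794, adjusted p = 0.019), although neither gene was called there. In the annotation 41.1% of the exon bases of Pex11g also lie in a gene on the opposite strand, whose reads cannot be told apart from its own. The same holds for 11.5% of those of Pecr, 11.4% of those of Acaa1b and of Far2, and 10.8% of those of Pxmp2.

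The 5 thermoneutral liver libraries are those that appear to have been joined from a separate table. In every level of thermoneutral liver set against adipose tissue below, tissue and table therefore cannot be told apart. At thermoneutrality liver had the highest mean for 24 of the 35 genes, and for 21 of them all 5 liver libraries lay above all 15 adipose ones. These 21 held 8 of the 9 beta-oxidation genes and all 3 of alpha-oxidation and enoyl reduction. The shares of all genes with these patterns were not counted, so the counts of 24 and 21 are only descriptions. Against BAT 23 genes were higher in liver (29.4% of all 20756 genes) and 8 lower (34%). With library totals 22 were higher and 10 lower, beside 4521 and 8713 of all genes. With totals free of mitochondrial transcripts 21 were higher and 12 lower, beside 3539 and 10723 of all genes, whose median moved from -0.06 to -0.712 on the log2 scale. Under the latter Pex2, Pex6, Pex11a and Pex19 were called lower in liver, and Pex14 and Acaa1a were no longer called. Scp2 was at 5012 ± 359 CPM in liver and 503 ± 50.5 CPM in BAT, a log2 difference in level of 3.32 (SE 0.15, adjusted p = 7.01e-20). Acox2 was at 246 ± 37.8 CPM in liver, 4.04 ± 3.02 CPM in BAT, 3.05 ± 1.07 CPM in eWAT and 0.607 ± 0.301 CPM in iWAT, and the BAT and eWAT libraries overlapped. The log2 difference between liver and BAT was 3.66 for Hacl1 and 3.04 for Cat.

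Abcd2, Gnpat, Agps and Far1 showed the reverse, with all 5 liver libraries below all 15 adipose ones. The share of all genes with this reverse pattern was not counted either. Far1 was at 33.5 ± 1.11 CPM in eWAT, 31.0 ± 4.95 CPM in iWAT, 15.7 ± 1.18 CPM in BAT and 3.57 ± 1.18 CPM in liver, and the eWAT and iWAT libraries overlapped. Abcd2 was at 493 ± 48.4 CPM in eWAT, 425 ± 106 CPM in iWAT, 106 ± 40.7 CPM in BAT and 34.8 ± 11.5 CPM in liver, again with overlap between eWAT and iWAT. Gnpat was at 279 ± 27.9 CPM in BAT and 61.2 ± 6.38 CPM in liver, a log2 difference of -2.19 (SE 0.15, adjusted p = 7.59e-15).

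Between BAT and iWAT the levels depended on how libraries were scaled, since scaling by library totals moved the median difference of all genes from -0.084 to -0.899 on the log2 scale. With TMM scaling 21 genes were higher in BAT (22.6% of all genes) and 5 lower (24.7%). With library totals 7 were higher and 13 lower, beside 1328 and 12219 of all 20756 genes. With totals free of mitochondrial transcripts, an alternative chosen after seeing the data, 12 were higher and 9 lower, beside 2138 and 9436 of all genes. Pex3 and Pex13 were called higher with TMM and lower with library totals. Higher with both of these were Pex10, Acox2, Abcd3, Amacr, Phyh, Decr2 and Pecr, and lower with both were Pex16, Abcd2, Pxmp2, Far1 and Far2. Phyh, for example, was at 628 ± 69.7 CPM in BAT and 109 ± 14.3 CPM in iWAT.

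**Figure D5:**
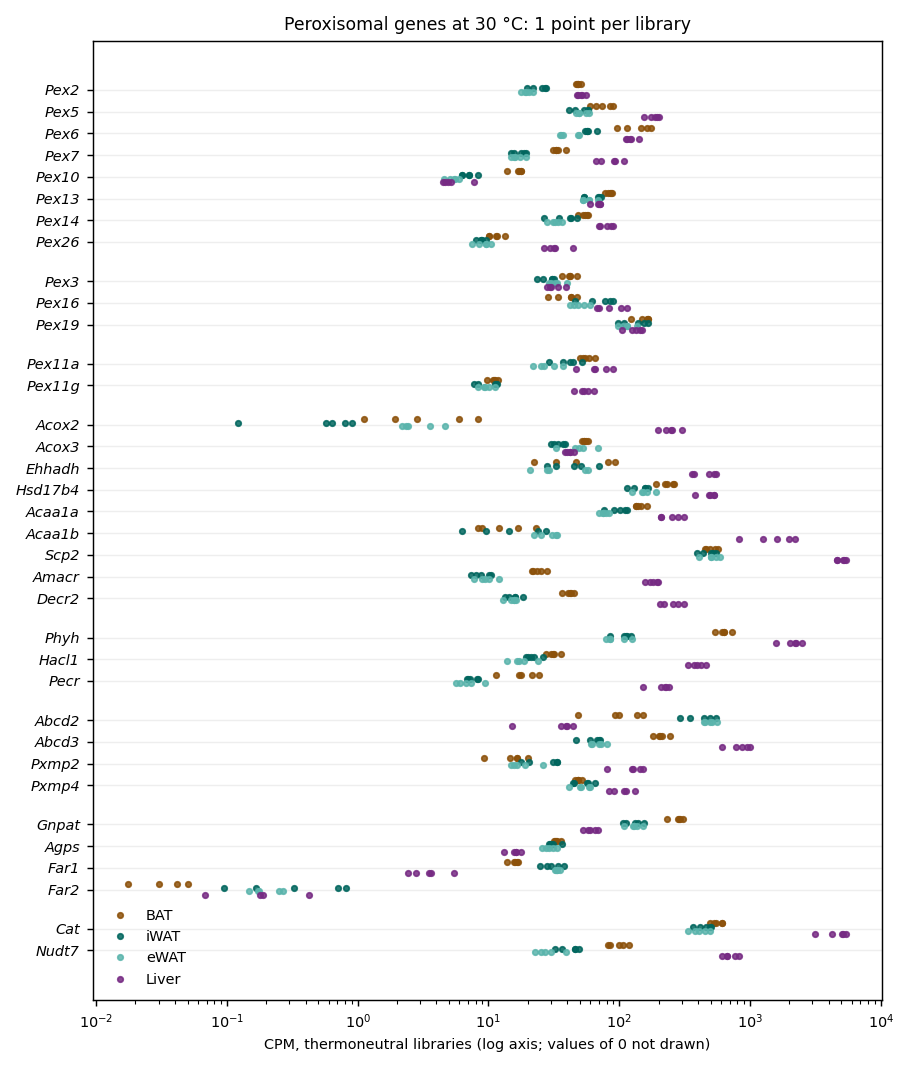
CPM on a log axis in each thermoneutral library, 1 point per library and 1 colour per tissue, for the 35 genes grouped by role. For 21 genes the 5 liver points lie above the level of all 15 adipose points, and for Abcd2, Gnpat, Agps and Far1 below it. The shares of all genes with these patterns were not counted. The 5 liver libraries appear to come from a separate table.

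The 10 genes called in no tissue were Acaa1b, Acox2, Acox3, Far2, Pecr, Pex6, Pex10, Pex11a, Pex11g and Pex26. Among them Far2, a second fatty alcohol reductase, had thermoneutral means of 0.0279 CPM in BAT, 0.422 CPM in iWAT, 0.203 CPM in eWAT and 0.172 CPM in liver.

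Other genes of the organelle and its regulators were read in the same fits. As background for the counts below, 30.2% of all BAT genes rose and 30% fell, and in iWAT 7.2% and 4.29%. In eWAT the shares were 1.77% and 2%, and in liver 1.01% and 0.65%. In BAT 20 of 27 further lipid enzymes and carriers rose and 3 fell, with a median of 0.972 on the log2 scale. Slc25a17, a carrier of CoA and adenine nucleotides in the peroxisomal membrane, went from 39.3 ± 2.76 to 320.4 ± 26.6 CPM (log2 fold change 3.06, SE 0.08, adjusted p = 2.42e-09). Mlycd, which degrades malonyl-CoA, rose by 2.06, the acyl-CoA thioesterase Acot8 by 2.37 and the CoA diphosphatase Nudt19 by 1.44. Of 12 other peroxins and division genes 7 rose and 2 fell, with rises of 1.15 for Mavs, an antiviral adaptor found on peroxisomes and mitochondria, 0.80 for the ligase Mul1, and 0.66 and 0.54 for the division factors Mff and Fis1. Of 12 oxidases, proteases and redox enzymes 5 rose and 4 fell, with 1.41 for Tysnd1, which trims imported enzymes, 1.06 for xanthine dehydrogenase Xdh, 0.99 for the protease Ide and -1.52 for Mpv17l.

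In iWAT 12 of 25 further lipid enzymes rose and 0 fell. Ephx2, an epoxide hydrolase, went from 187 ± 9.30 to 603 ± 167 CPM (log2 fold change 1.65, SE 0.19, adjusted p = 0.00197). The acyl-CoA dehydrogenase Acad11 rose by 1.24 and the thioesterase Acot4 by 2.24. Acot5, another thioesterase, rose by 7.41 from a mean of 0.0159 CPM, so the size of its change is uncertain. Among the division genes the ligase Mul1 rose by 0.65. Of 15 oxidases, proteases and redox enzymes 2 rose and 0 fell, Xdh by 0.83 and Paox by 0.80. In eWAT 4 of 30 further lipid enzymes rose, Acot4 by 1.40, Acot3 by 4.71, Acad11 by 0.95 and Nudt12 by 0.50. In liver 1 of 28 rose, Tmem189, the desaturase that makes plasmalogens, by 0.86 (adjusted p = 0.0494).

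Of 12 regulators tested in BAT 8 rose and 0 fell. The coactivator Ppargc1a went from 31.3 ± 5.71 to 278 ± 78.0 CPM (log2 fold change 3.18, SE 0.21, adjusted p = 4.4e-07), and the nuclear receptors Esrra, Nr1h3 and Ppard rose by 1.23, 1.22 and 0.76. In iWAT 6 of 13 rose and 0 fell, among them Ppargc1a by 1.55, Ppargc1b by 1.40, Nr1h3 by 0.93 and Esrra by 0.74. In eWAT and in liver 0 of 13 were called by edgeR, with 2 and 5 at an unadjusted p under 0.05. Whether levels of the regulators and of the 35 genes depend on each other was not tested.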

How the data were processed

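Polyadenylated RNA from 4 tissues of mice after 24 h at 4 or 30 °C was sequenced with an unstranded kit, per the labels' protocols. The deposited file holds estimated counts (expected counts, all already whole, so no rounding was needed) per gene symbol for 40 libraries, called raw per the labels. STAR 2.7.8a, RSEM 1.3.0, FastQC, DESeq and the builds GRCm39 and GRCm38 are named, without roles, in the submitters' processing notes. Of 53863 symbols 78 stand on more than 1 line, and 43 of these show every combination of 35 libraries with the 5 thermoneutral liver libraries. No 2 libraries of a group agreed within sampling noise.

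Counts were tested with edgeR 4.0.16 in R 4.3.3 (robust quasi-likelihood, TMM, filterByExpr with a minimum count of 10 and a minimum total of 15), within each tissue on 10 libraries and over all 40 for differences between tissues. Alternatives used DESeq2 1.42.0, limma 3.58.1 (voom), other scalings, no filter, marker covariates, a replicate block and each library left out. The tests were checked on simulated data. The scaling over 40 libraries differs from that within a tissue, cold against thermoneutral, by 0.0269 (BAT), -0.0398 (iWAT), -0.0187 (eWAT) and 0.0906 (liver) on the log2 scale. Promoters came from RefSeq, and exon overlaps and shared stretches from GENCODE on GRCm38.

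The members and gene lists were chosen with earlier results of these data known. Values per library are given for the 5 steepest called rises and falls in each tissue with at least 1 CPM, and for genes called in 3 tissues. Counts carry no correction for transcript length. One result of the further gene lists is not reported here.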

Additional observations from a re-analysis of the deposited data

Results flagged for a closer look

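Of 280 groups of 5 libraries checked, 1 for each gene and group, 17 held a library far from the other 4; chance alone gives such a library in about 1 group in 20. Cold replicate 1 of BAT was that library for 4 genes, and cold replicates 3 and 5 of liver for 3 each. In BAT, cold replicate 1 had Pex10 at 13.5 CPM (others 15.1 to 15.6 CPM), Acaa1b at 93.0 CPM (others 16.9 to 22.4 CPM), Hacl1 at 17.9 CPM (others 24.9 to 26.4 CPM) and Far1 at 25.9 CPM (others 14.1 to 17.3 CPM). In liver, cold replicate 1 had Pex11a at 132 CPM (others 77.5 to 82.8 CPM) and Hsd17b4 at 716 CPM (others 509 to 563 CPM). In liver, cold replicate 3 had Pex5 at 92.3 CPM (others 165 to 189.5 CPM), Pex14 at 39.2 CPM (others 72.8 to 82.1 CPM) and Phyh at 3861 CPM (others 2257 to 2475 CPM). In liver, cold replicate 5 had Pex7 at 89.9 CPM (others 76.0 to 78.1 CPM), Ehhadh at 491 CPM (others 161 to 239.8 CPM) and Acaa1b at 2182.1 CPM (others 137 to 408 CPM). In BAT, thermoneutral replicate 4 had Pex10 at 13.9 CPM (others 16.8 to 17.9 CPM). In liver, thermoneutral replicate 1 had Pex13 at 60.3 CPM (others 68.3 to 71.3 CPM). In liver, thermoneutral replicate 4 had Pex10 at 7.76 CPM (others 4.46 to 5.16 CPM). In iWAT, thermoneutral replicate 1 had Agps at 36.8 CPM (others 29.0 to 31.2 CPM). In iWAT, thermoneutral replicate 2 had Pex6 at 67.9 CPM (others 54.5 to 57.7 CPM).

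The cold effect differed between BAT and another tissue, by an interaction test over all 40 libraries (edgeR, adjusted p under 0.05), in 39 results. Relative to BAT the log2 effect in iWAT was higher for 6 genes, by 2.22 for Abcd2, 1.22 for Hacl1, 1.02 for Gnpat, 0.99 for Acaa1a, 0.86 for Phyh and 0.62 for Hsd17b4. It was lower there for 5 genes, with differences of -2.53 for Ehhadh, -1.98 for Acox2, -0.60 for Amacr, -0.56 for Abcd3 and -0.47 for Agps. Acox2 was very low in iWAT, with means of 0.607 CPM in thermoneutral and 0.194 CPM in cold libraries, and was called in neither tissue. The size of its difference is therefore uncertain. Relative to BAT the log2 effect in eWAT was higher for 2 genes, by 1.79 for Abcd2 and 0.91 for Phyh. It was lower there for 9 genes, with differences of -3.86 for Ehhadh, -1.34 for Abcd3, -1.01 for Pex14, -1.01 for Pex16, -0.95 for Amacr, -0.95 for Scp2, -0.73 for Pex13, -0.65 for Pex7 and -0.64 for Agps. Relative to BAT the log2 effect in liver was higher for 3 genes, by 2.08 for Abcd2, 0.83 for Phyh and 0.72 for Hacl1. It was lower there for 14 genes, with differences of -4.44 for Ehhadh, -2.69 for Acaa1b, -1.79 for Abcd3, -1.55 for Pex14, -1.38 for Far1, -1.33 for Pex16, -1.15 for Nudt7, -1.004 for Amacr, -0.997 for Scp2, -0.92 for Pex19, -0.88 for Pex5, -0.83 for Pex13, -0.81 for Pex7 and -0.63 for Agps. These 3 sets share the BAT libraries.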

How the results depend on the processing

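In BAT the 21 called genes stayed past the threshold in all 378 results under the alternatives, in iWAT in 201 of 270, in eWAT in 31 of 51 and in liver in 6 of 18, and 0 changed sign. In iWAT the genes higher were 0 with a replicate block and 9 with lymphocyte markers as a covariate; the genes lower were 0 without the filter, 2 by DESeq2 and 0 with the block. In eWAT the genes higher were 1 without the filter, 6 by DESeq2 and 0 with the block; the genes lower were 2 with library totals, 2 by DESeq2 and 0 with the block. In liver 1 gene was higher by DESeq2 and 1 without cold replicates 4 and 5; the genes lower were 0 with library totals, voom or the block, and 4 without those replicates. Fewer genes had a lower effect in iWAT than in BAT without the filter (3), and more by DESeq2 (8). Between BAT and iWAT levels, 7 genes were higher and 13 lower with library totals, and 12 and 9 with totals free of mitochondrial transcripts. The cause of these changes was not tested.

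Leaving out 1 library in turn gave 17 to 19 higher and 4 to 6 lower in BAT, 8 to 16 and 0 to 2 in iWAT, 0 to 2 and 0 to 2 in eWAT, and 0 to 2 and 0 to 4 in liver. It gave 5 to 7 genes with a higher and 3 to 6 with a lower effect in iWAT than in BAT. The labels do not say whether replicate numbers pair the exposures, and correlations over 5 libraries a group cannot exclude it. Cold and thermoneutral libraries of the same number did not deviate together throughout (correlations from -0.708 to 0.474). Across tissues of 1 exposure some did: thermoneutral iWAT and eWAT libraries of the same number correlated at 0.107 to 0.244, each best with its own number, and BAT and iWAT ones at 0.094 to 0.631. With number and exposure as a replicate block across tissues, the genes with a higher and lower effect than in BAT were 6 and 5 in iWAT, 2 and 9 in eWAT, and 3 and 16 in liver, and levels gave 23 and 8 for liver against BAT and 21 and 5 for BAT against iWAT. Within a tissue the replicate block moved the calls over all genes to 78 higher and 30 lower in iWAT, 18 and 4 in eWAT, and 1 and 4 in liver, and left 17 and 4 of the 35 genes in BAT. Over all genes of iWAT, library totals gave 912 higher and 1067 lower and the lymphocyte covariate 864 and 1159. In liver, library totals gave 5 and 11. With 5 libraries a group, misses in iWAT, eWAT and liver do not show that a gene did not change.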
